A study of Mus musculus with 157 samples.

Results

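The cytosolic ribosomal protein genes encode the proteins of the ribosome that works in the cytoplasm. They were taken as every gene symbol beginning Rpl or Rps that ends in a number, with or without a short suffix letter, together with Rpsa, Rplp0, Rplp1 and Rplp2. S6 kinase genes and pseudogene symbols were left out. The rule found 106 transcripts of 85 genes among 23643 gene symbols, and each gene was represented by its transcript with the highest mean read count. By name, 31 genes belong to the small subunit, 44 to the large subunit and 3 to the stalk of the large subunit. The remaining 7 are grouped as paralogs, relatives of a usual member: Rpl3l, Rpl7l1, Rpl10l, Rpl22l1, Rpl39l, Rps4l and Rps27l. Rps4l is represented by a transcript annotated as noncoding.

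A ribosome needs its proteins in matched amounts, so these genes are among the most heavily transcribed in dividing cells, and their products make up a large part of what such cells synthesise. Their transcripts begin with a tract of pyrimidines, the terminal oligopyrimidine (TOP) motif, through which the mTOR pathway and Larp1 control how well they are translated. RNA polymerase II (Pol II) starts a gene with its tail phosphorylated at serine 5 and gains serine 2 phosphorylation as it moves along the gene, so the 3 forms measured here report on the start and on the body of a gene.

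Mouse E14 cells, wildtype embryonic stem cells kept in serum and leukaemia inhibitory factor on a gelatin coat, were treated with 1 µM retinoic acid (RA), which makes them differentiate. Crosslinked chromatin was immunoprecipitated with antibodies to the N-terminal domain of Pol II (NTD), which detect all of it, to serine 5 phosphorylated Pol II (Ser5p) and to serine 2 phosphorylated Pol II (Ser2p), and sequenced. Untreated cells (0 h) were set against cells after 2, 4, 6, 24, 48 and 72 h of RA. NTD had 2, 2, 3, 3, 2, 3 and 2 libraries at these times, and Ser5p and Ser2p had the same numbers except 3 libraries at 2 h. Whether the libraries of a group stem from separate cultures is not said, and p-values therefore reflect only how far these samples differ, possibly for technical reasons. Reads were counted within 1 kb on either side of the annotated transcription start site (TSS) with NTD and Ser5p, and over the whole gene with NTD and Ser2p. Levels are given as CPM, counts scaled to the library's total in the same table after that total was adjusted by edgeR's TMM factor, which evens out the bulk of transcripts between libraries.

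The stretch from 70 bases before to 30 bases after the annotated start is shown for 6 genes, since Pol II was counted around these starts. The first 3 had large falls of NTD at 48 h against 6 h, and the last 3 had the changes closest to 0 or above it. Rpl7a was picked after its values were seen. Sequences are from RefSeq, build GRCm38.p6, written 5′ to 3′ on the gene's strand, with CTTTCC, the SP1 motif GGGCGG and TATAAA in capitals on either strand. The windows are chrX:102189362-102189461 (minus strand) for Rps4x, chr9:120571447-120571546 (plus) for Rpl14, chr7:45128716-45128815 (minus) for Rpl13a, chr5:115559397-115559496 (plus) for Rplp0, chr2:26910737-26910836 (plus) for Rpl7a and chr17:24719993-24720092 (plus) for Rps2.
Rps4x: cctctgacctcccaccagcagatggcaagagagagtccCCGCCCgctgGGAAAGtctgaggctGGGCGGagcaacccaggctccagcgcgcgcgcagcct
Rpl14: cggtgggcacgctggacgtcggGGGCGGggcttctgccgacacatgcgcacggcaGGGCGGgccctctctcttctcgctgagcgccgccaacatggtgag
Rpl13a: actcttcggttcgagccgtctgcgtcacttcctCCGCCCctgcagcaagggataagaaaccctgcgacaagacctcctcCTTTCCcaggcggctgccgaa
Rplp0: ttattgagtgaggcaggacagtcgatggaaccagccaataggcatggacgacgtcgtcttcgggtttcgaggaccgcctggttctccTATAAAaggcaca
Rpl7a: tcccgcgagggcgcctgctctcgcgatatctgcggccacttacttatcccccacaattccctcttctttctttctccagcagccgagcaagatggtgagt
Rps2: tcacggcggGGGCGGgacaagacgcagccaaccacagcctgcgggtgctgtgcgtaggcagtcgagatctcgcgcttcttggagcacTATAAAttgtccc

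Promoter entries of 300 bases were found for 64 of the 85 genes. The letters CCGGAAG, read by ETS factors, stood on either strand in 40.6% of these genes and in 9.93% of all 27025 symbols of the table. CTTTCC stood in 51.6% against 29.3%, GGGCGG in 60.9% against 38.2%, and AAGATGGC, read by YY1, in 9.38% against 3.19%. A C at the annotated start followed by 4 pyrimidines, as a TOP mRNA would begin, was present in 21.9% of the genes and in 3.01% of all symbols. That share requires the annotated start to be exact to the base, which was not tested, so it can miss genes. At Rplp0 and Rps2, TATAAA stands at bases 18 to 23 counted from the annotated start. TATAAA was present in 12.5% against 15.7%, and CACGTG in 9.38% against 8.09%. The RA response element in its DR5 form, a pair of AGGTCA with 5 bases between them, was in 0 of the 64 and in 0.0111% of all symbols. Among genes with NTD called lower at 48 h against 6 h, 6.9% of 29 held TATAAA and 44.8% held CTTTCC, and among the other 35 genes 17.1% and 57.1% did. Rpl22, which had the largest fall, is 1 of the 2 genes called lower with TATAAA in an entry, and it is not shown because it has 2 entries with different starts. These matches describe letters in the window and do not show that a factor binds.

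Library totals are sums of counts over all transcripts of a table, so a read can enter more than once where transcripts overlap. Shares and ratios of reads use these totals. They ran from 1088159 to 3210580 for NTD and from 1504737 to 3347830 for Ser5p at TSS. Over gene bodies they ran from 11684907 to 25696364 (NTD) and from 18045745 to 28745658 (Ser2p). At 0 h the embryonic stem cell marker Pou5f1 had 67.5 ± 14.4 CPM (SD, n = 2) of NTD at TSS. Of the other markers, Sox2 had 130 CPM, Nanog 63.2, Zfp42 135 and Tdgf1 140. Esrrb had 10.2 CPM, below the median of all symbols, 12.7. By 48 h NTD had fallen at 4 of 6 markers against 6 h, Pou5f1 among them by 1.80 on the log2 scale (edgeR's quasi-likelihood test with Benjamini-Hochberg adjustment). NTD reads at TSS per 100 reads over gene bodies, which depend on how sharply a library concentrates at starts, ranged from 8.58 to 10.1 at 0 and 2 h, from 10.6 to 12.3 at 6 h and from 8.70 to 14.4 at 48 h. They were 8.20 and 12.7 in the 72 h libraries. Both 72 h libraries also differed in the ribosomal protein genes, whose median NTD at TSS was 116 CPM in one and 182 in the other.

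Ribosomal protein genes carried far more Pol II at their starts than most genes. The median gene had 156 CPM of NTD at TSS, while the median of all symbols was 12.7, and 79 of 85 lay above the 90th percentile of all symbols. For Ser5p the median was 152 CPM against 16.4, with 80 genes above the 90th percentile. Rpl3, which lies near the peptidyl transferase centre, had the highest mean in all 4 tables, with 411 CPM of NTD and 391 of Ser5p at TSS. Rps2, at the mRNA entry site, followed with 344 and 317 CPM. Next came Rps12 for NTD with 307 CPM, and Rps20 for Ser5p with 316.

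Counts over whole genes were less extreme because the genes are short, with a median length of 3175 bp. Median CPM was 27.5 for NTD and 11.7 for Ser2p, against 11.0 and 9.82 for all symbols, and 2 and 0 genes exceeded the 90th percentile. Per length, by the authors' deposited FPKM, 81 genes for NTD and 80 for Ser2p exceeded it. Rps20 had the highest FPKM for NTD, 47.8, and Rpl3 for Ser2p, 15.1. Rpl41 (40.8) and Rpl36 (36.9) followed Rps20 for NTD, and Rps20 (13.3) and Rpl36 (13.2) followed Rpl3 for Ser2p. By CPM over gene bodies Rps15a, with 76.8 for NTD and 48.6 for Ser2p, and Rpsa, with 61.4 and 34.2, came after Rpl3. At TSS the lowest levels of NTD were at Rpl32l, a symbol of the large subunit by its name, with 8.12 CPM, the muscle paralog Rpl3l with 8.33 and the testis paralog Rpl39l with 20.4. For Ser5p Rpl3l was lowest with 12.7 CPM, before Rpl32l with 13.3 and Rpl39l with 22.6. Over gene bodies Rpl32l (0.513 CPM of NTD), the testis paralog Rpl10l (1.84) and Rps4l (4.31) were lowest. For 60 of 85 genes the length behind the FPKM is the whole gene span within 0.1%, so the body region includes the start. Both regions were not counted alike, in a way that is not stated. Rps27, 982 bp long, lies inside its TSS window, but its NTD count over the body was larger. It was 339 against 305 in 0 h replicate 1 and 572 against 503 in 0 h replicate 4.

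Total Pol II at the starts of these genes moved little in the median through the first day of RA and was lower at 48 h. The mean over libraries of the median gene's NTD at TSS was 174.8 CPM at 0 h (SD 24.5, n = 2), 160.3 at 2 h, 168.8 at 4 h, 166.4 at 6 h (SD 15.1, n = 3) and 154 at 24 h. It was 118 CPM at 48 h (SD 12.5, n = 3), where the libraries ranged from 107 to 131, and 149 at 72 h. No 48 h library reached any 6 h library, the lowest of which was at 150.5 CPM. All 85 genes together took 1.51% of the NTD reads at TSS at 0 h, 1.42% at 6 h, 1.07% at 48 h and 1.27% at 72 h. These are bulk libraries, in which fewer cells with Pol II on a gene and less Pol II per cell cannot be told apart. Over gene bodies the NTD median went from 31.6 CPM at 6 h to 18.9 at 48 h, Ser5p at TSS from 165 to 123, and Ser2p from 12.7 to 8.61.

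**Figure D1:**
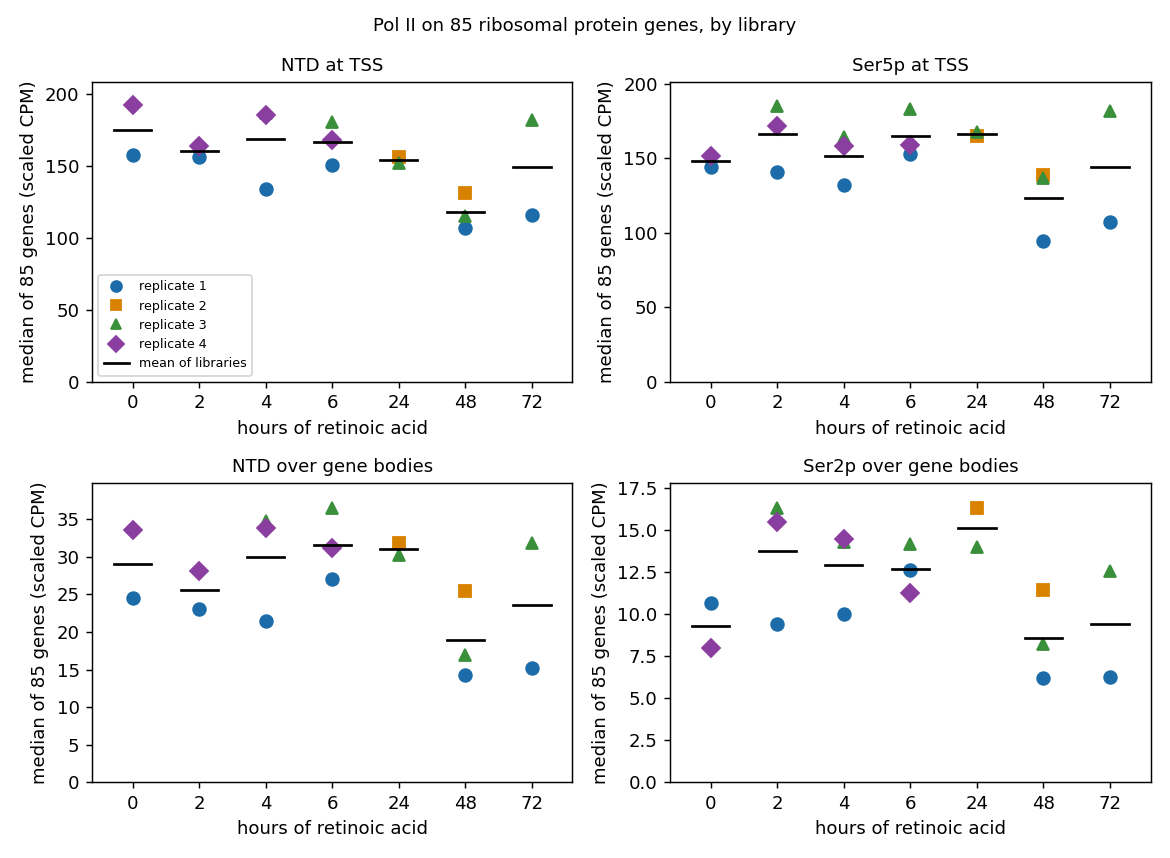
Each point is 1 library and gives the median level over the 85 genes in CPM against hours of RA, in a panel for each of the 4 tables, with colours and shapes for replicate numbers and a black bar for the mean of the libraries of a time. The 48 h libraries of NTD at TSS lie between 107 and 131 CPM, below all 6 h libraries, and the 72 h libraries lie apart at 116 and 182.

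In the first 6 h no gene passed the test for NTD at TSS. At 2, 4 and 6 h against 0 h, 0 of 85 were called higher or lower by edgeR's quasi-likelihood test, 0 had an unadjusted p under 0.05 and DESeq2 called 0. Of all transcripts tested, 0.267%, 0.436% and 0.373% were called lower and 0.0533%, 0.273% and 0.355% higher. Median changes of the genes were -0.11, -0.01 and -0.02 on the log2 scale. At 24 h, 1 gene was called lower, Rps4x, by -0.86 ± 0.24 (SE, edgeR adjusted p = 0.0477), where 0.581% of all transcripts were called lower. This call was lost when any one of the 0 h and 24 h libraries was left out, and in 6 other fits that left out 1 library.

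Ser5p at TSS and NTD over gene bodies gave no called gene through 24 h either. The median changes of Ser5p were 0.15, 0.08, 0.15 and 0.14 at 2, 4, 6 and 24 h. Its calls were 0 at each time, with 0 genes at an unadjusted p under 0.05 up to 6 h and 2 at 24 h, and DESeq2 called 1 higher at 24 h. Of all transcripts 0.0305%, 0.0122%, 0.0488% and 3.59% were called higher and 0%, 0.00305%, 0.0061% and 3.14% lower. For NTD over gene bodies the medians were -0.18, 0.03, 0.07 and 0.03, with 0 calls by edgeR and DESeq2 and 1 gene at an unadjusted p under 0.05, at 24 h. There 0%, 0.0188%, 0.0691% and 0.261% of all transcripts were called higher and 0%, 0%, 0% and 0.00942% lower.

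Between 6 h and 48 h, the times with 3 libraries each, NTD at TSS fell at 37 of the 85 genes and rose at none. Of all 31868 transcripts tested, 6.52% were called lower and 3.6% higher. The median change of the genes was -0.50 on the log2 scale, and 83 of 85 changes were below 0, while the median of all transcripts was 0.00. Every 48 h library was below every 6 h library at 63 genes, against 15.3% of all transcripts. Falls were also more frequent than overall among the other symbols with much Pol II at their starts: of 2286 above the 90th percentile, 390 (17.1%) were called lower, with a median change of -0.17. Against 0 h, 29 genes were called lower at 48 h (4.92% of all transcripts) and 0 higher (4.66%), with a median of -0.50. A test by edgeR of all times together, which takes a change in either direction at any time, stood out less. It called 18 of 85 genes for NTD at TSS (14.9% of all transcripts) and 11 for Ser5p (14.5%). Over gene bodies it called 6 for NTD (7.81%) and 6 for Ser2p (7.53%).

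The count of 37 was 16 without 6 h replicate 3, 16 without 48 h replicate 1, 20 without 48 h replicate 3 and 22 without either 2 h library. It was 4 with the authors' scale factors, under which the median change was -0.51. Relative to the median of all transcripts, that change was -0.509 with the authors' factors and -0.505 with TMM. Counts from other fits, here and below, stand without the shares of all transcripts called in the same fits. The share of NTD reads at starts was higher in the 6 h libraries than in 2 of the 48 h libraries. Its part in the result was not tested. In 48 h replicate 2, with 14.4 reads at TSS per 100 over gene bodies, the median gene was at 131 CPM, against 150.5 or more in the 6 h libraries. Replicate 1 had the lowest median for NTD at TSS at every time with such a library, and within replicate numbers 1 and 3, the ones with both times, the median change from 6 h to 48 h was -0.47 and -0.62.

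**Figure D2:**
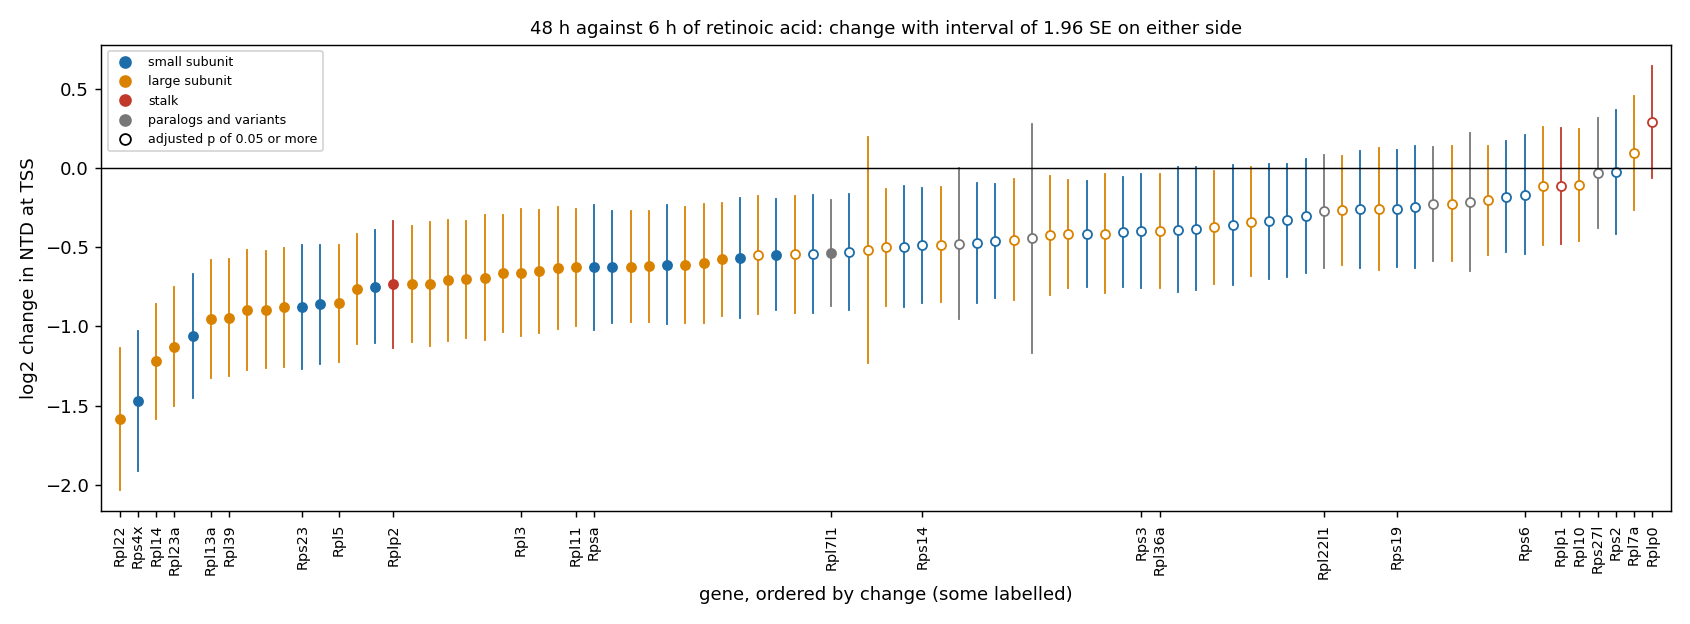
The 85 genes are ordered by their log2 change of NTD at TSS at 48 h against 6 h, each with its 95% interval, coloured by subunit and with some genes labelled, and filled points mark an adjusted p under 0.05. Changes run from -1.58 at Rpl22 to 0.29 at Rplp0, and the 37 filled points all lie below 0.

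The falls were unequal, and the largest were at Rpl22, Rps4x, Rpl14 and Rpl23a. Rpl22 (chr4:152324436-152334082), a large subunit protein that cells can do without, had 81.9, 118 and 97.8 CPM of NTD at TSS at 6 h and 23.2, 38.7 and 36.1 at 48 h. Each 48 h library was below each library of 0 h and 6 h. The log2 change from 6 h was -1.58 ± 0.23 (SE, edgeR adjusted p = 2.28e-06). Rps4x (chrX:102184941-102189391), the X-linked gene of a small subunit protein, had 49.0, 80.7 and 47.8 CPM at 6 h and 21.9, 22.2 and 18.9 at 48 h. Its groups did not overlap either, and the change was -1.47 ± 0.23 (edgeR adjusted p = 7.28e-06). Rpl14 (chr9:120571517-120574653) had 121, 138 and 139 CPM at 6 h and 51.8, 64.6 and 52.5 at 48 h, a change of -1.22 ± 0.19 (edgeR adjusted p = 6.12e-06). Rpl23a (chr11:78180935-78183584), which lines the exit of the peptide tunnel, had 201, 234 and 207 CPM at 6 h and 82.4, 102 and 110.1 at 48 h, a change of -1.13 ± 0.19 (edgeR adjusted p = 3.9e-05). At all 4 genes the falls were also called in each of 25 alternative fits. The start of another gene, 9430083M05Rik, lies 21 bp from that of Rpl22, and reads there cannot be told apart.

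In the small subunit 10 of 31 genes fell, with a median change of -0.46, and Rps4x had the largest fall. Rpsa, a small subunit protein related to a laminin receptor, had 198, 251 and 208 CPM at 6 h and 114, 161 and 149.7 at 48 h. Its groups did not overlap, with a change of -0.63 ± 0.20 (edgeR adjusted p = 0.0345), but the call was lost in 10 of 25 alternative fits, among them those without any one of 6 h replicates 3 and 4 or 48 h replicates 1 and 3.

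Other well-known small subunit genes did not pass the test. Rps14, a gene lost in the 5q- syndrome, had 145, 191 and 188 CPM at 6 h and 128, 133 and 112 at 48 h. Rps3, at the entry channel of the mRNA, had 145, 177 and 155 CPM at 6 h and 102, 116 and 146 at 48 h, so its groups overlapped. Their changes were -0.49 (edgeR adjusted p = 0.0854) and -0.40 (0.175). Rps19, mutated in Diamond-Blackfan anaemia, changed by -0.26 (0.457), and Rps6, the target of the S6 kinases, by -0.17 (0.678). Rps2 had 290.0, 380.4 and 345 CPM at 6 h and 321, 353 and 321 at 48 h, which overlapped throughout. Its change was -0.03 ± 0.20 (edgeR adjusted p = 0.963), and the start of the snoRNA host Snhg9 lies 98 bp from its own, so reads of both are counted together.

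In the large subunit 25 of 44 genes fell, with a median change of -0.62. Whether the subunits differed was not tested. Rpl13a (chr7:45125563-45128745), which also silences inflammatory mRNAs when released from the ribosome, had 228, 294 and 277 CPM at 6 h and 132, 144 and 135 at 48 h. The change was -0.96 ± 0.19 (edgeR adjusted p = 0.000378). Rpl3 had 407, 539 and 425 CPM at 6 h and 262, 319.9 and 282 at 48 h, a change of -0.66 ± 0.20 (edgeR adjusted p = 0.0271). Groups were apart at both genes. The call at Rpl3 was lost in 8 of 25 alternative fits, those without 6 h replicate 3 or 4, 48 h replicate 1 or 3, 0 h replicate 1 or either 2 h library among them.

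Rpl5 and Rpl11, which carry the 5S rRNA into the ribosome and bind Mdm2 when ribosome assembly is disturbed, both fell. Rpl5 had 159.7, 227 and 181 CPM at 6 h and 84.3, 123 and 105 at 48 h, and Rpl11 had 114, 169 and 133 against 82.4, 114 and 68.0. Their changes were -0.85 ± 0.19 (edgeR adjusted p = 0.00139) and -0.63 ± 0.19 (0.0226). At Rpl11 the highest 48 h library equalled the lowest 6 h library to 3 digits, and the call was lost in 8 of 25 alternative fits, including those without any one of 6 h replicates 3 and 4, 48 h replicates 1 and 3 and the 2 h libraries.

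The X-linked large subunit genes all had changes below 0, and Rpl39 alone passed the test. Whether these genes differed from each other was not tested. Rpl39, a very small protein of the exit tunnel, had 94.0, 114 and 97.8 CPM at 6 h and 49.1, 55.2 and 54.2 at 48 h, and fell by 0.94 on the log2 scale (edgeR adjusted p = 0.0004). Rpl36a had 122, 142 and 131 CPM against 87.7, 105 and 107, and its change of -0.40 was not called (0.18). Rpl10, which joins the large subunit last, had 184, 201 and 192 CPM against 161, 186 and 189, with a change of -0.11 (0.799). Of the 4 X-linked genes, Rps4x and Rpl39 were thus called lower and Rpl10 and Rpl36a were not.

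In the stalk, the lateral arm that recruits translation factors, 1 of 3 genes fell. Rplp2 (chr7:141447651-141451359) had 126, 176 and 148 CPM at 6 h and 68.4, 89.4 and 114 at 48 h, a change of -0.74 ± 0.20 (edgeR adjusted p = 0.0128). Among 25 alternative fits this call was lost when 6 h replicate 3 or 48 h replicate 1 was left out, and with the authors' scale factors. Rplp0 (chr5:115559467-115563729), the base of the stalk and a common reference gene, had 126, 154 and 127 CPM at 6 h and 153, 173 and 169.5 at 48 h. It was the gene with the highest change, 0.29 ± 0.18, which was not called (edgeR adjusted p = 0.364). Rplp1, which pairs with Rplp2, had 162, 169 and 156 CPM at 6 h and 130.2, 162 and 157 at 48 h, with a change of -0.11 (0.794). Of the whole set only Rplp0 and Rpl7a had changes above 0. Rpl7a, with 173, 221 and 181 CPM against 189, 228 and 195, changed by 0.09 (0.83), and the start of Med22 lies 165 bp from its own.

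**Figure D3:**
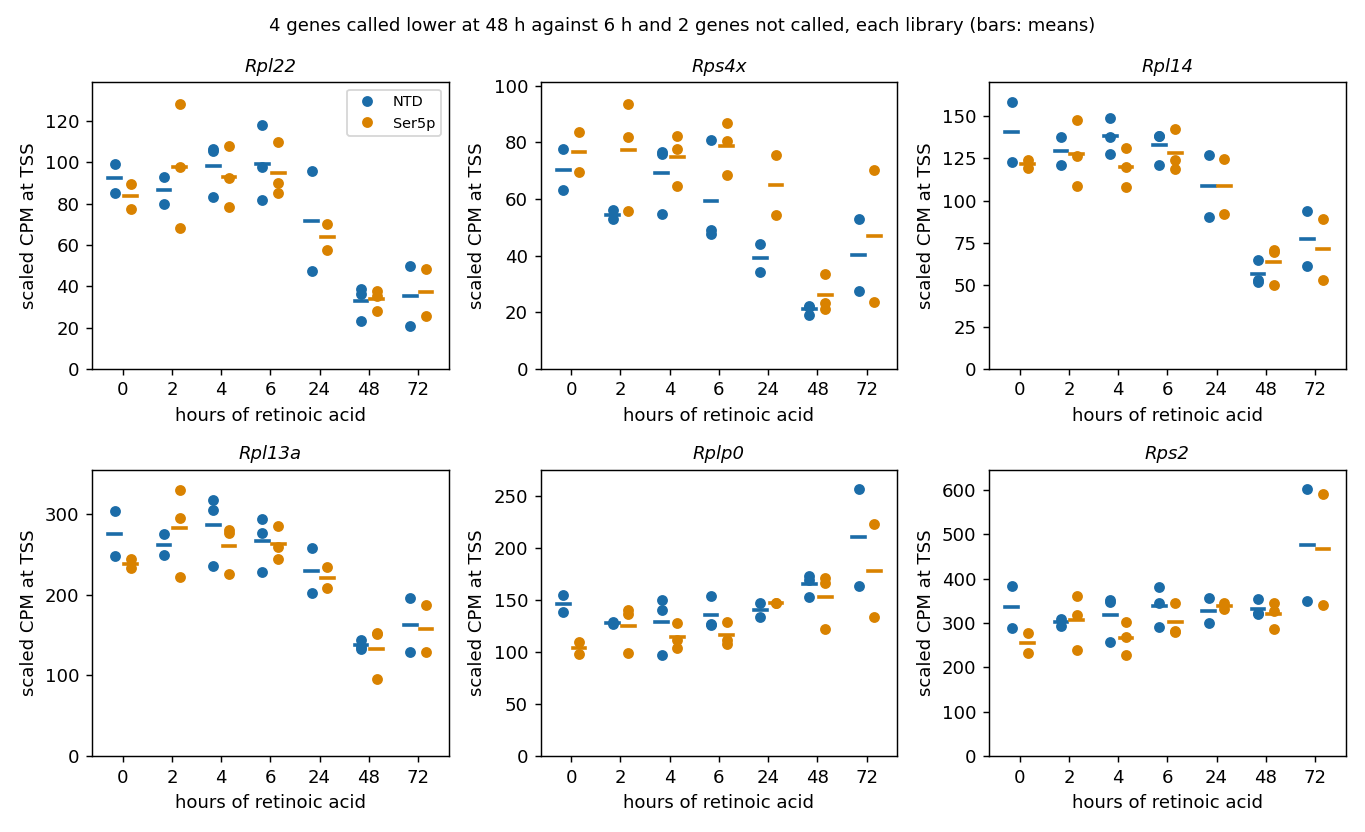
Each point is 1 library and gives the level at TSS in CPM against hours of RA, for NTD (blue) and Ser5p (orange) at Rpl22, Rps4x, Rpl14, Rpl13a, Rplp0 and Rps2, and bars are means. NTD at Rpl22 lies between 81.9 and 118 CPM at 6 h and between 23.2 and 38.7 at 48 h, while at Rplp0 it lies between 126 and 154 and between 153 and 173.

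Among the paralogs 1 of 7 fell, with a median change of -0.27. Rpl7l1 (chr17:46773907-46782656), a relative of Rpl7, had 95.1, 112 and 95.6 CPM at 6 h and 62.4, 83.0 and 59.4 at 48 h, a change of -0.54 ± 0.17 (edgeR adjusted p = 0.0312) that was lost in 10 of 25 alternative fits. Those included fits without either 0 h library, either 2 h library, 6 h replicates 3 or 4, or 48 h replicates 1 or 3. Rpl22l1, the paralog that rises when Rpl22 is lost in other settings, had 62.3, 96.9 and 89.3 CPM at 6 h and 60.4, 64.6 and 83.5 at 48 h, overlapping, with a change of -0.27 (0.395). Rps27l, a target of p53, had 93.4, 109 and 111 CPM against 95.0, 117 and 92.1, with a change of -0.03 (0.951). The tissue-restricted Rpl3l, Rpl10l and Rpl39l changed by -0.44 (0.535), -0.22 (0.64) and -0.48 (0.231), and Rps4l by -0.23 (0.511). Their mean levels over all libraries were 8.33, 23.3, 20.4 and 45.6 CPM. The median of the 85 genes was 156 CPM and that of all symbols 12.7.

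Ser5p at TSS, measured in other libraries, fell at 15 of 85 genes between 6 h and 48 h (3.21% of all transcripts tested) and rose at none (3.81%), with a median change of -0.38. All 15 were among the 37 genes of NTD, of which they are 40.5%. Ser5p at Rpl22 was 89.7, 109.6 and 85.0 CPM at 6 h and 27.9, 37.6 and 35.4 at 48 h. At Rps4x it was 80.5, 86.9 and 68.4 against 21.2, 33.4 and 23.2. The groups did not overlap, and the changes were -1.48 ± 0.22 (edgeR adjusted p = 1.14e-05) and -1.58 ± 0.25 (2.43e-05), also called in all 26 alternative fits. Falls were also called at Rpl14 (-1.01), Rpl13a (-0.98) and Rpl23a (-0.95). Rplp0 had 108, 129 and 112 CPM against 123, 166 and 172, which overlap, and its change of 0.40 was not called (0.277).

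Across the 85 genes the 48 h changes of NTD and Ser5p at TSS ordered the genes alike, with a Pearson correlation of 0.935 and a Spearman correlation of 0.892. These are correlations over genes, and both antibodies were counted in the same windows. The change of Ser5p minus that of NTD had a median of 0.03, and edgeR's interaction test called 0 of 85 genes (0% of all transcripts in either direction) with 0 at an unadjusted p under 0.05. The difference at Rpl22 was 0.03 with a 95% interval from -0.66 to 0.72, and at Rps4x -0.18 from -0.92 to 0.55, so differences of this size could have gone unseen. The Ser5p count of 15 was 5 without 48 h replicate 1, 7, 8 and 9 without 6 h replicates 3, 4 and 1, and 23 without either 72 h library.

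The 48 h libraries were also set against 0 h. Ser5p was called lower at 8 genes (5.37% of all transcripts) and higher at 0 (6.84%), with Rps4x (-1.54), Rpl22 (-1.30) and Rpl14 (-0.94) changing most. NTD over gene bodies was called lower at 8 (2.02%) and higher at 0 (1.72%), with Rps4x (-1.60), Rpl22 (-1.35), Rpl13a (-1.26) and Rpl23a (-1.25) at the head. For NTD at TSS the largest of the 29 falls were at Rps4x, from 63.0 and 77.7 CPM at 0 h, Rpl22 and Rpl14, with changes of -1.73, -1.48 and -1.31. With 0 h replicate 1 left out the counts were 16 for NTD at TSS, 3 for Ser5p and 1 for NTD over gene bodies. With 0 h replicate 4 left out they were 6, 2 and 0, with 48 h replicate 1 left out 13, 3 and 0, and with 0 h replicate 4 and 72 h replicate 3 both left out 11, 3 and 0. Ser5p gave 5 when 48 h replicate 3 was left out. NTD over gene bodies gave 0 in that fit, 29 when 48 h replicate 2 was left out, 26 and 25 when 72 h replicate 1 or 3 was, 4 when either 2 h library was, and 5 when 6 h replicate 3 or 4 was.

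Over gene bodies NTD fell at 25 of 85 genes (6% of all transcripts tested) and Ser2p at 7 (3.01%), and neither rose at any gene (3.77% and 2.42% of all). The median changes were -0.75 and -0.59, against 0.03 and 0.01 for all transcripts. NTD over Rpl13a was 59.8, 83.4 and 68.8 CPM at 6 h and 18.9, 36.7 and 25.1 at 48 h, a change of -1.39 ± 0.27 (edgeR adjusted p = 0.00413). Ser2p there was 32.5, 34.0 and 26.2 CPM against 8.53, 17.4 and 12.4, a change of -1.27 ± 0.30 (0.0205). Each 48 h library was below each 6 h library for both. Other Ser2p falls included Rpl21 (-1.16), Rpl22 (-0.95), Rpl14 (-0.85) and Rps7 (-0.71). Rpl22 had the largest NTD change over gene bodies, -1.47 (0.00452), followed by Rpl13a, Rps4x (-1.37) and Rpl23a (-1.35).

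**Figure D4:**
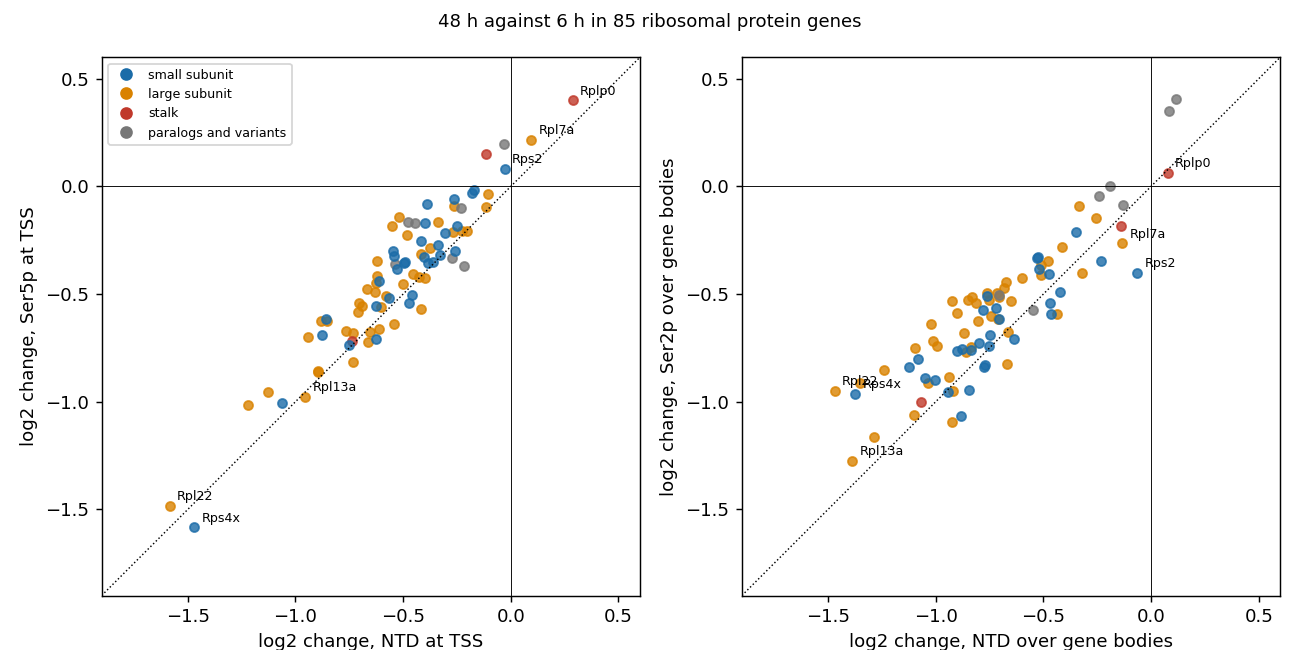
Each point is 1 of the 85 genes and gives its log2 change at 48 h against 6 h, with NTD against Ser5p at TSS on the left and NTD against Ser2p over gene bodies on the right, and the dotted line marks equal changes. Most points lie below 0 on both axes, with Rpl22 and Rps4x at the far end of the left panel.

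A total of 5 genes, Rpl13a, Rpl14, Rpl21 and Rpl22 among them, were called lower in all 4 tables, while 44 genes were called in none. NTD at TSS and over gene bodies come from the same libraries and both cover the start, and 23 genes were called in both. How many of all transcripts were called in several tables, or in none, was not counted, so these numbers only describe these genes. The ratio of NTD over the body to NTD at the start had a median change of -0.35, with -0.14 over all transcripts. Limma called 0 genes, where 0.0521% of all transcripts were called lower and 0.013% higher, and 19 had an unadjusted p under 0.05 below 0. The change of Ser2p minus that of NTD over gene bodies had a median of 0.16, and edgeR's interaction test called 0 genes (0% of all transcripts lower and 0.00931% higher), with 0 at an unadjusted p under 0.05. The body counts leaned on single libraries. NTD gave 3, 59 and 4 calls without 48 h replicates 1, 2 and 3, 16, 5 and 9 without 6 h replicates 1, 3 and 4, and 53 and 51 without 72 h replicates 1 and 3. Ser2p gave 0 without 6 h replicate 1 or 3 or 48 h replicate 1 or 3, and 3 without 6 h replicate 4. It gave 4 when either 0 h library, 2 h replicate 4 or 4 h replicate 3 or 4 was left out, 13 when 2 h replicate 1 was, and 18 when either 72 h library was.

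Before 48 h, Ser2p over these genes was above the untreated level in most libraries. The mean of the library medians was 9.32 CPM at 0 h, 13.7 at 2 h, 12.9 at 4 h, 12.7 at 6 h and 15.1 at 24 h. At 24 h every library lay above every 0 h library at 73 of 85 genes, against 35.2% of all transcripts. The test called 3 genes higher (9.01% of all transcripts) and 1 lower (3.99%), with a median change of 0.63. Rps27l had 6.28 and 4.55 CPM at 0 h and 9.22 and 14.6 at 24 h, a change of 1.15 ± 0.30 (edgeR adjusted p = 0.0328). Rpl15 had 10.6 and 8.00 CPM against 16.8 and 16.7, and Rpl31 9.73 and 8.25 against 17.0 and 15.3, changes of 0.85 and 0.84. The gene called lower was Rpl3l (-0.50, edgeR adjusted p = 0.0379), a call lost when either 0 h library, either 24 h library or 6 h replicate 4 was left out.

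At 2 h the median change of Ser2p was 0.56, with 0 genes called by edgeR or DESeq2 and 19 at an unadjusted p under 0.05 above 0, and none of the transcripts tested was called (0%). When the replicate 1 libraries of all times were left out, a choice made after seeing the data, 1 library remained at 0 h. Its Ser2p median was 8.00 CPM against 10.6 in the one left out, so no conclusion is drawn from calls against 0 h in that fit. They are only listed with the alternatives below. NTD over the same gene bodies changed by 0.03 at 24 h, and the difference between both antibodies, 0.61, gave 0 calls (0% of all transcripts) and 1 gene at an unadjusted p under 0.05. Ser2p against 0 h gave 0 calls at 48 and 72 h, with 3 and 0 genes below 0 at an unadjusted p under 0.05, and DESeq2 gave 0. Of all transcripts 0.346% and 0.342% were called lower and 1.41% and 1.28% higher. The 24 h count was 0 without either 0 h library or 24 h replicate 3, 8 without 2 h replicate 1, 9 without 48 h replicate 2, 18 and 19 without 72 h replicates 1 and 3, and 1 in 7 other fits.

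At 72 h the 2 libraries gave no common level. NTD at TSS was called lower than at 0 h at 9 genes (3.47% of all transcripts) and higher at 0 (5.66%), led by Rpl22, with 85.2 and 99.3 CPM at 0 h and 20.8 and 49.8 at 72 h. Its change was -1.30 ± 0.27 (edgeR adjusted p = 0.000649), and Rpl23a (-1.03), Rpl30 (-0.93) and Rps25 (-0.90) followed. For Ser5p, 3 genes were called lower (3.87% of all transcripts), Rpl22, Rps25 and Rpl14, and 2 higher (5.09%). Those were Rps2, with 233 and 277 CPM at 0 h and 342 and 589 at 72 h, and Rplp0, with 110.2 and 98.8 against 134 and 224. Their changes were 0.87 ± 0.29 and 0.77 ± 0.26 (both edgeR adjusted p = 0.0467), and both were lost in 12 of 18 fits that left out 1 library, those without either 0 h library or 72 h replicate 3 among them. The 3 lower calls became 1 when 0 h replicate 1, 2 h replicate 4 or 6 h replicate 1 was left out, 0 when 0 h replicate 4 or 72 h replicate 1 was, and 5 when 72 h replicate 3 was.

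Over gene bodies NTD was called lower at 72 h at Rpl30 alone (-0.90, edgeR adjusted p = 0.0401, 1.64% of all transcripts) and higher at 0 genes (2.87%). This call was lost in 11 of 17 fits that left out 1 library, each 0 h library among them, and 10 genes were called lower without 72 h replicate 3. From 48 h to 72 h the median change was 0.33 for NTD at TSS, with 0 genes called by edgeR or DESeq2 and 22 at an unadjusted p under 0.05 above 0. Of all transcripts 0.499% were called higher and 0.0439% lower. Ser5p and NTD over gene bodies had medians of 0.24 and 0.39, 0 genes called and 4 and 6 at an unadjusted p under 0.05, all above 0. Of all transcripts 0.0122% and 0.00314% were called higher and 0.00305% and 0% lower. The NTD count of 9 at TSS was 18 without 72 h replicate 3, 3 without 72 h replicate 1, 4 and 3 without 0 h replicates 1 and 4, and 8 with 0 h replicate 4 and 72 h replicate 3 both left out. From 48 h to 72 h, leaving out 72 h replicate 1 gave 17 genes higher for NTD at TSS and 19 for NTD over gene bodies.

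Size and position of the genes were set beside their changes at 48 h against 6 h. A total of 30 genes hold 59 snoRNA genes within their spans. NTD at TSS was called lower at 17 of these 30, with a median change of -0.61, and at 20 of the other 55, with -0.47. Over the 85 genes the Spearman correlation of the change was -0.12 with gene length and -0.18 with the number of snoRNA genes, which are weak and given as descriptions. The genes lie on 19 chromosomes. At 13 the start of another gene lies within 1 kb, among them Rpl9 with Lias at 66 bp, Rps18 with Vps52 at 135 bp and Rpl12 with Lrsam1 at 71 bp, and their counts at TSS include both.

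Genes that work with the ribosome were compared over the same 6 to 48 h of NTD at TSS, where 6.52% of all transcripts were called lower and 3.6% higher. Of the ribosomal genes that the naming rule misses, 3 of 4 fell with a median of -0.60, among them Rack1 (-0.68), a scaffold on the small subunit, and Fau (-0.54), which encodes a ribosomal protein fused to a ubiquitin-like protein. Of 9 long noncoding snoRNA hosts, 4 fell, with a median of -0.55, led by Snhg4 (-1.01, edgeR adjusted p = 8.01e-05), Snhg6 (-0.71) and Gas5 (-0.69). Of 27 ribosome assembly factors, 6 fell, with a median of -0.29, led by Nob1 (-1.19, edgeR adjusted p = 0.000145), the nuclease that finishes the 18S rRNA, and by Dkc1 (-0.74) and Nop10 (-0.66), which modify rRNA. Of 12 genes of Pol I and its factors, Ubtf (-0.68) fell, with a median of -0.46. No gene of these lists rose.

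Of 16 translation factors with TOP mRNAs, Eef1g (-0.67) and Eif4b (-0.54) fell and none rose, with a median of -0.27. Of 78 mitochondrial ribosomal protein genes, 14 fell and none rose, with a median of -0.35. Among 16 regulators of these genes, 3 fell and 1 rose, with a median of -0.31. Larp1, which binds TOP mRNAs, fell by 1.51 on the log2 scale (edgeR adjusted p = 1.6e-07), as did Mtor (-0.65) and Rptor (-0.55) of the mTOR complex, while Mycl of the Myc family rose by 1.28 (0.000169). Of 8 reference genes tested, B2m rose (0.98) and none fell, with a median of -0.13.

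For Ser5p the list medians were nearer 0, at -0.42 for the ribosomal genes missed by the rule, -0.54 for snoRNA hosts, -0.33 for Pol I and its factors, -0.17 for ribosome assembly, -0.12 for TOP translation factors and -0.10 for mitochondrial ribosomal proteins. The numbers called lower were 0, 2, 1, 2, 1 and 2, where 3.21% of all transcripts were, the first with 2 genes at an unadjusted p under 0.05. Larp1 fell (-0.84) and Mycl rose (0.72) for Ser5p too. Over gene bodies the snoRNA hosts had NTD and Ser2p medians of -0.83 and -1.03, with 4 and 0 genes called lower.

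At 72 h against 0 h, NTD at TSS was lower at Larp1 (-1.32) and Myc (-0.65), at Nob1 (-1.03), Dkc1 (-0.98) and Fbl (-0.73), at Snhg4 (-0.96), at Polr1b (-0.86) and Rrn3 (-0.77), and at Eef1g (-0.80). It was higher at Eef1d (0.87) and at the reference genes B2m (1.83) and Actb (1.15). All of these passed edgeR's quasi-likelihood test, and the shares of all transcripts called at 72 h are given above. They rest on 2 libraries at 72 h, in which the median ribosomal protein gene had 116 and 182 CPM. Calls in these lists, here and at 48 h against 6 h, were not followed through the alternative fits.

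**Figure D5:**
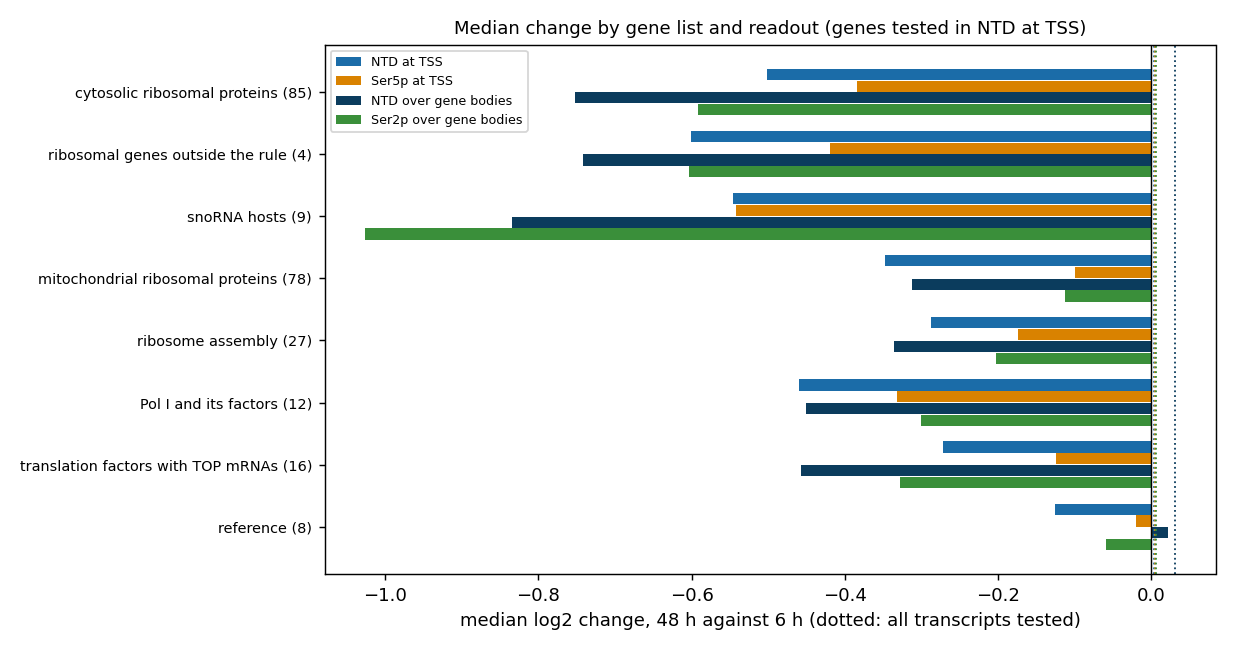
Bars give the median log2 change at 48 h against 6 h of each gene list in each of the 4 tables, and dotted lines mark the medians of all transcripts tested. The ribosomal protein genes stand at -0.50, -0.38, -0.75 and -0.59, and the reference genes lie between -0.13 and 0.02.

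In the authors' deposited table for NTD at TSS, 42 of the 83 genes with an adjusted p were lower at 48 h than at 6 h at 0.05, against 8.03% of all transcripts with an adjusted p there. In the authors' deposited table for Ser5p these were 36 of 83 (4.16% of all transcripts with an adjusted p), in that for NTD over gene bodies 72 of 83 (12.1%) and in that for Ser2p 53 of 75 (5.73%), with shares of the same kind in parentheses. In the authors' deposited tables for 72 h against 0 h, the numbers lower were 3, 5, 20 and 0 in the same order. They are out of 83, 83, 83 and 82 genes with an adjusted p, against 1.03%, 1.38%, 1.9% and 0.246% of all such transcripts. In the authors' deposited table for Ser5p, 2 genes were higher at 72 h, where 903 of 16735 transcripts were. At 48 h against 6 h the authors' numbers exceed the calls given above in each table.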

How the data were processed

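The submitters' processing notes name mm10, dm6, Bowtie2, SAMtools, MACS2 and DESeq2, per the labels. For their versions and roles, and for the counting tool, nothing is given in the sources used here, and the labels' extraction protocol describes native ChIP only. The labels name 157 samples, and 53 Pol II libraries are used here. Input and histone mark samples are not analysed here. Groups come from the antibody and hours of RA in the labels.

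The authors deposited raw read counts per RefSeq transcript. They also deposited a normalized signal (the count times 1 factor per library, of which the origin is not stated), FPKM values per library over gene bodies, and log2 fold changes with adjusted p-values of their own comparisons. A further 14 columns of per-group mean FPKM were not used. Tables hold 33687, 33746, 33968 and 33985 transcripts (NTD TSS, Ser5p TSS, NTD body, Ser2p body). Rows without a symbol (80, 90, 104 and 106) hold 0.065%, 0.0761%, 0.0168% and 0.0166% of the counts and name no member.

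The quasi-likelihood test of edgeR 4.0.16, run in R 4.3.3 after filterByExpr and with TMM scaling, was applied to the counts, with all libraries of a table in 1 fit, time as a factor and Benjamini-Hochberg adjustment over all 31868, 32774, 31843 and 32123 transcripts tested at 0.05. All times of a table were also tested together, and differences between antibodies were tested as interactions. The body to TSS ratio was tested with limma 3.58.1 on log2 CPM from plain library totals with a pseudocount of 0.5. The biological coefficient of variation was 0.138, 0.141, 0.118 and 0.0899. CPM levels in the text use library totals times the TMM factors, and shares of reads use plain totals. Figures used matplotlib 3.10.9. The steps were tested on simulated data. All 85 symbols matched RefSeq (GRCm38, the same build as mm10), and 64 have a promoter entry. For 7 members the NTD tables are represented by different transcripts.

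Members and lists were chosen with earlier results of these data known. Named genes are Rpsa, Rplp0 to Rplp2, Rpl3, Rpl5, Rpl10, Rpl11, Rpl13a, Rps3, Rps4x, Rps6, Rps14, Rps19, Rpl36a, Rpl39 and the paralogs, the 3 highest and 3 lowest genes per table, up to 4 rises and 4 falls per table and contrast, and up to 3 genes past the threshold from each other list at 48 h against 6 h and at 72 h against 0 h. Some genes that this rule names are not reported here, and any other gene was named after its values were seen. Alternatives were DESeq2 1.42.0, library totals, the authors' factors, no filter, a replicate block, other transcripts and pseudocounts, leaving out each library, leaving out 0 h replicate 4 with 72 h replicate 3, and, added after seeing the data, leaving out replicate 1.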

Additional observations from a re-analysis of the deposited data

How the results depend on the processing

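Of 1725 single-gene results under the alternatives, 1402 kept their call, 323 lost it and 0 reversed. The genes' median change at 48 h against 6 h ranged from -0.56 to -0.40 for NTD at TSS, -0.53 to -0.30 for Ser5p, -0.95 to -0.70 for NTD over gene bodies and -0.79 to -0.44 for Ser2p, apart from fits that left out 1 library. Counts of calls moved more, and are given for genes lower unless stated otherwise, without the shares of all transcripts called in the same fits. The cause was not tested.

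With the authors' scale factors NTD at TSS gave 0, 2, 0 and 4 at 24, 48 and 72 h against 0 h and 48 h against 6 h. Ser5p gave 3 higher at 24 h, 2 at 48 h, 0 in either direction at 72 h, and 2 at 48 h against 6 h. NTD over gene bodies gave 5 at 48 h and 0 at 72 h, and Ser2p 4 at 48 h against 6 h. These factors moved the median of all transcripts by 0.12 to 0.47 in 11 comparisons, and library totals by -0.20 to -0.13 in 2. Relative to that shift the genes' median for NTD at TSS at 48 h against 0 h was -0.47, and -0.48 with TMM. With library totals NTD at TSS gave 44 at 48 h, 16 lower and 1 higher at 72 h, and 1 higher at 72 h against 48 h. Ser5p gave 26, 12 and 34 at 48 h, 72 h and 48 h against 6 h.

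DESeq2 gave 0 for NTD at TSS at 24 h, 1 higher at 24 h and 23 at 48 h against 6 h for Ser5p, and 21, 5 and 46 for NTD over gene bodies at 48 h, 72 h and 48 h against 6 h. For Ser2p the counts were 9 higher with 0 lower at 24 h, then 16 at 48 h against 6 h. Without the filter on low counts NTD at TSS gave 0 at 24 h and Ser5p 0 higher at 72 h.

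Without 0 h replicate 4 and 72 h replicate 3 together, NTD at TSS gave 0 at 24 h and 11 at 48 h, Ser5p 3 at 48 h, 0 higher at 72 h and 23 at 48 h against 6 h, NTD over gene bodies 0, 0 and 51 at 48 h, 72 h and 48 h against 6 h, and Ser2p 0 lower and 0 higher at 24 h and 18 at 48 h against 6 h. Without replicate 1 of all times, chosen after seeing the data, NTD at TSS gave 18, 1 and 23 at 48 h, 72 h and 48 h against 6 h, and 11 higher at 72 h against 48 h. Ser5p gave 4 and 0 at 48 and 72 h, and 1 higher at 72 h against 48 h. NTD over gene bodies gave 24, 0 and 44, with 1 higher at 72 h and 5 higher at 72 h against 48 h. Ser2p gave 73, 27, 66, 1 and 27 higher at 2, 4, 24, 48 and 72 h, and 1 lower at 72 h.

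The fit without replicate 1 keeps 1 library at 0 h, so no conclusion is drawn from its counts against 0 h. For Ser2p the 0 h library kept had the lower median, 8.00 CPM against 10.6 in the one left out. Leaving out 1 library at a time gave ranges. NTD at TSS had 0 to 1, 6 to 35 and 3 to 18 at 24, 48 and 72 h, 16 to 41 at 48 h against 6 h, 0 to 3 higher at 72 h and 0 to 17 higher at 72 h against 48 h. Ser5p had 2 to 12 lower and 0 to 1 higher at 48 h, 0 to 5 lower and 0 to 4 higher at 72 h, 5 to 23 at 48 h against 6 h, and 0 to 1 higher at 72 h against 48 h. NTD over gene bodies had 0 to 29 at 48 h, 0 to 10 lower and 0 to 3 higher at 72 h, 3 to 59 at 48 h against 6 h and 0 to 19 higher at 72 h against 48 h. Ser2p had 0 to 1 lower and 0 to 19 higher at 24 h, and 0 to 18 at 48 h against 6 h. Other counts stayed at 0, and a group left with 1 library was taken to vary like the others.

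The labels give libraries a replicate number without saying what it marks. Deviations of same-number pairs correlated from -0.12 to 0.31 for NTD and from -0.32 to 0.44 for Ser5p at TSS, and from -0.52 to 0.71 for NTD and -0.59 to 0.72 for Ser2p over gene bodies. The correlation was over 0.1 in 13 of 32, 17 of 37, 27 of 32 and 18 of 37 pairs in that order, not in every pair, so the number was not taken as pairing. As a hint from the data, 12 of 17, 12 of 18, 10 of 17 and 11 of 18 libraries correlated best with their own number. With the replicate number as a block, NTD at TSS gave 4, 55 and 15 at 24, 48 and 72 h, 52 at 48 h against 6 h and 5 higher at 72 h against 48 h. Ser5p with the block gave 30 and 11 at 48 and 72 h, 1 higher at 72 h, 43 at 48 h against 6 h and 1 higher at 72 h against 48 h. NTD over gene bodies gave 63, 18 and 69, and Ser2p 0 lower and 0 higher at 24 h and 46 at 48 h against 6 h. The block moved no count of the ratio or of the interactions.

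Depth limits the low paralogs and the body counts of short genes, where CPM rests on few reads. Groups of 2 libraries at 0, 24 and 72 h, and at 2 h for NTD, leave those comparisons less precise than 48 h against 6 h. The tests measure shares of reads, so a change of total Pol II on chromatin would not be seen.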
